A study of Rattus norvegicus with 46 samples.

Results

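Left ventricular RNA of male Wistar rats was compared 9 weeks after myocardial infarction with that of sham-operated rats, on 6 of the 46 arrays of a series on cardiac hypertrophy. In the infarction group the left anterior descending coronary artery had been occluded with a ligature, and in the sham group the ligature was passed under the vessel and taken out again. There were 4 infarction arrays (replicates 1 to 4) and 2 sham arrays (replicates 5 and 6), chosen by their labels, and each array held RNA pooled from several animals. The age of the rats was not given in the sources used here. The study's methods state that only hearts with large transmural infarcts entered and that the scar was cut away, so the RNA describes what remained of the left ventricle. The 8740 probe sets were read as model-based signals in arbitrary units. A difference is the mean log2 signal of the infarction arrays minus that of the sham arrays, given ± SE, with 4 against 2 arrays throughout. The SE rests on a spread shared by the groups of all 46 arrays. Where the infarction arrays differ more widely among themselves, it and the p-value can be too small. A probe set was called when its limma p-value, adjusted over all probe sets by the Benjamini-Hochberg method, was below 0.05.

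When part of the left ventricle is lost, the surviving muscle carries a larger load, and its walls stretch and thicken. Cardiomyocytes then raise genes of the fetal heart, above all those of the natriuretic peptides, hormones that promote salt excretion and relax vessels, and of skeletal alpha-actin. Fibroblasts lay down collagen outside the scar as well as inside it, macrophages take up debris, and the muscle, which normally lives mainly on fatty acids, can shift its fuel use.

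The natriuretic peptide genes and skeletal alpha-actin stood out in these hearts, and the stretch of DNA that precedes each gene's start is shown here because these members went the same way. The sequences are the 250 bases before the annotated start, read 5′ to 3′ on the gene's strand from the RefSeq promoter table (build GRCr8). Capitals mark every exact CArG box (CCWWWWWWGG, W being A or T), the site of serum response factor, and every CATTCC, the core of the MCAT element. Both were searched on both strands, and every TATAAA on the gene's strand is marked as well. Looser variants of the CArG box were not searched, so an unmarked window may still hold one. Nppa, which encodes atrial natriuretic peptide, lies at chr5:163711934-163712183 (+ strand), Nppb, of brain natriuretic peptide, at chr5:163699758-163700007 (+ strand), and Acta1, of skeletal alpha-actin, at chr19:68784195-68784444 (- strand).
Nppa: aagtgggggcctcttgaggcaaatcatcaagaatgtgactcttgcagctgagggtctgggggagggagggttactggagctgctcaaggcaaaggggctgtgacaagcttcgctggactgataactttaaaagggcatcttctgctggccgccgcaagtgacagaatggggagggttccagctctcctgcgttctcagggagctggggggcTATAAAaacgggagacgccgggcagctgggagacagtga
Nppb: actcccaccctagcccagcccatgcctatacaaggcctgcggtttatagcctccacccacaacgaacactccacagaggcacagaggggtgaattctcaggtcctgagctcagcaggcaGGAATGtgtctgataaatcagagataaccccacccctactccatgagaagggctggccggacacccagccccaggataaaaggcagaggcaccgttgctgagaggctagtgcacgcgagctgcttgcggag
Acta1: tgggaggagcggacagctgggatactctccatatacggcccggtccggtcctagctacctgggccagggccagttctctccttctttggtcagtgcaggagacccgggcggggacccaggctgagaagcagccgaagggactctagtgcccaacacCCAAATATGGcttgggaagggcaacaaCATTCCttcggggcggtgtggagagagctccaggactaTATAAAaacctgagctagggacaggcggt
The starts of Nppb and Nppa lie 12176 bases apart on the same strand. The Acta1 window held a CArG box, whose first base was 94 bases before the start, a CATTCC at 67 and a TATAAA at 29. The Nppb window held a CATTCC, read as GGAATG, at 131, and the Nppa window a TATAAA at 39. Of 33469 rat promoters of the same length, 1.5% held a CArG box, 12.1% a CATTCC and 8.06% a TATAAA, and no overlap between these motifs occurred in the 3 windows. The 3 genes and the motifs were picked after the values had been seen, and a match is only a run of letters.

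Far more probe sets were higher than lower after infarction. In all, 168 of 8740 probe sets (1.92%) were called, 148 higher (1.69%) and 20 lower (0.229%), against 1201 at an unadjusted p below 0.05. They carry 114 distinct gene symbols among the higher and 12 among the lower. Of all 8740 probe sets, 1198 had every infarction array above both sham arrays and 561 had every one below both. Among the called, all 148 higher were above in this way and 18 of the 20 lower were below. The calls were made on these same arrays, so this separation largely follows from them and is no added support. The exceptions were Crem and Syt1, where sham replicate 5 alone was high (1707 against 331 in sham replicate 6 for Crem, 434 against 168 for Syt1). The median over all probe sets was 0.02. Exact permutation of 4 against 2 arrays cannot give a two-sided p below 0.133, so single genes have no such test here, and limma takes its spread from all 46 arrays. The p-values measure the spread between pools, not between animals.

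**Figure D1:**
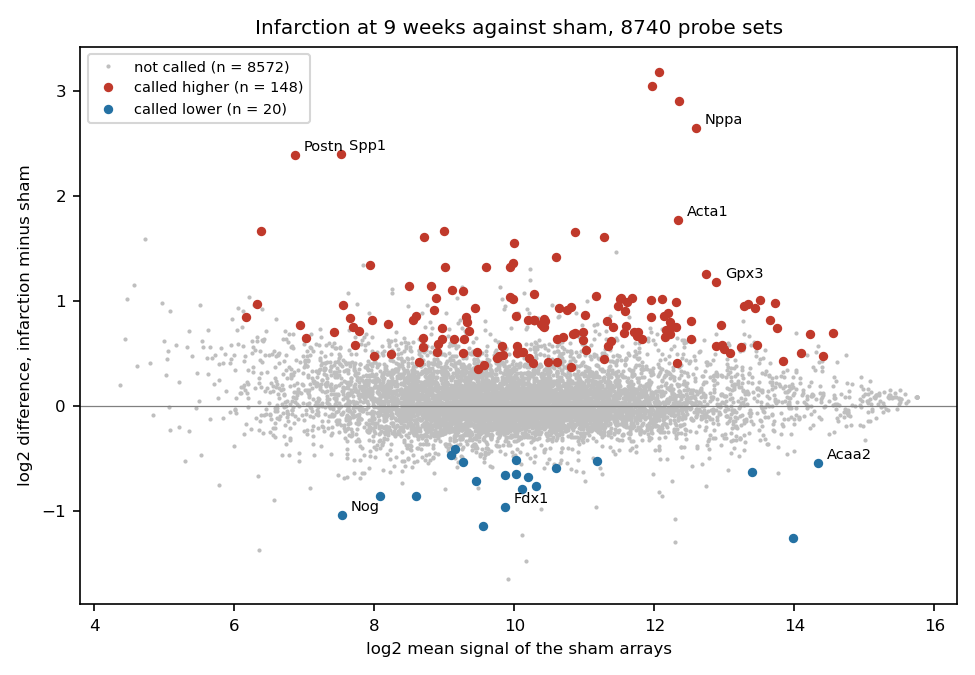
Log2 difference (infarction minus sham, y axis) of each of 8740 probe sets against the log2 mean signal of the sham arrays (x axis). Red points are the 148 called higher and blue points the 20 called lower. The 4 topmost points are the 4 probe sets of Nppa, at 2.65 to 3.18.

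The infarction arrays differed among themselves. Replicate 1 was the highest of the 4 in 102 of the 148 higher probe sets (68.9%, against 29.9% of all probe sets), and replicate 4 the lowest in 108 (73%, against 25.4% of all). The median log2 ratio of these 148 to the sham mean was 1.05 in replicate 1, 0.69 in replicate 2, 0.81 in replicate 3 and 0.49 in replicate 4. Log2 signals of infarction pairs correlated across probe sets at 0.9694 to 0.9873, against 0.9884 for the sham pair. Without infarction replicate 1 the count of calls was 49, without replicate 3 it was 102 and without replicate 4 it was 405. Without sham replicate 5 it was 28, and without sham replicate 6 it was 55. Every one of the 168 kept its direction without each infarction array and without sham replicate 6, and 167 kept it without sham replicate 5. For the 148 higher and 18 lower probe sets whose groups did not overlap, leaving out 1 array cannot turn the direction. Their kept direction therefore says nothing about how firm the calls are.

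The natriuretic peptide gene Nppa gave the largest difference of any named gene. All 4 probe sets of Nppa rose, by 2.65 to 3.18, and on the brightest the sham arrays read 6196 and 6251 and the infarction arrays 44031, 41951, 40134 and 31707. The groups did not come near each other, and the difference of 2.65 ± 0.224 was a 6.29-fold rise (adjusted p = 4.12e-09). Nppb read 10669 and 10209 in sham and 26141, 23092, 18291 and 15693 after infarction. All 4 infarction arrays were above sham, by 0.97 ± 0.226 on average (adjusted p = 0.0228). Pam, the enzyme that amidates secreted peptides and is stored with natriuretic peptide in atrial granules, rose by 0.47 ± 0.104 on its brightest probe set (adjusted p = 0.0163) and by 1.26 ± 0.182 on another (0.000101). Its 5 other probe sets were not called and lay between -0.62 and 0.57. In the natriuretic peptide system these were the members that rose, 3 of 11 measured genes, against 1.46% of 4736 named genes called higher and 0.148% called lower (1.6% called in all). The other 8, among them the receptors Npr1 (-0.06), Npr2 (0.03) and Npr3 (0.16), did not pass, and the list's median of 0.02 lay close to the 0.01 of all named genes. The other measured markers of atrial muscle, where Nppa is most active in a healthy adult heart, were at -0.06 for Myl7, 0.05 for Gja5 and 0.40 for Myl4, with none called.

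Acta1 read 4514 and 5978 in sham and 26916, 14576, 18249 and 13671 after infarction. The lowest infarction array was above the higher sham array by more than the sham arrays differed, and the gene rose by 1.77 ± 0.206, or 3.4-fold (adjusted p = 1.82e-06). The actin genes are close copies of each other in their coding parts, so probe sets may read more than 1 of them. Ankrd1, a stretch-responsive repressor bound to the sarcomere's titin, read 21902 and 26423 in sham and 39938, 35027, 41053 and 39354 after infarction, a rise of 0.69 ± 0.116 (adjusted p = 0.000974). Des, the muscle intermediate filament desmin, rose by 1.01 ± 0.155 (adjusted p = 0.000249), from 10438 and 13129 to 28319, 22282, 22379 and 22168. Csrp3, the muscle LIM protein of the Z-disc, rose by 0.58 ± 0.146 (adjusted p = 0.0325), and Ckb, the brain form of creatine kinase, by 1.02 ± 0.232 (adjusted p = 0.0185). In both, infarction replicate 1 was the highest, at 23994 for Csrp3 and 11420 for Ckb. Of 16 measured fetal sarcomere and hypertrophy genes 5 rose and 11 did not pass, against 1.46% of named genes called higher.

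Of the myosin heavy chain probe sets 1 was called. The brightest probe set of Myh7, the slow beta chain, was at 0.15 ± 0.179 (adjusted p = 0.787), while its other probe set read 12176 and 15061 in sham and 27706, 26364, 25263 and 27679 after infarction. That second probe set rose by 0.98 (adjusted p = 0.00457) with no overlap of the groups. Myh6, the fast alpha chain, lay at 0.05 to 0.10 on its 3 probe sets, with none called. The transcripts of both chains are near-identical over long stretches, so a probe set may read both. Of 16 measured sarcomere genes Acta1 alone was called, and their median was 0.08, with Ttn, Tnnt2, Tnni3 and Tpm1 between -0.13 and 0.08. After quantile normalization the sarcomere median was -0.00 and without sham replicate 5 it was -0.06, so it has no settled sign.

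Of the 8 heart muscle genes above that were called on the probe set the naming rule picked, 4 lost the call without infarction replicate 1 (Nppb, Pam, Csrp3 and Ckb, adjusted p = 0.0542 to 0.117), and the same 4 lost it without sham replicate 6 (0.0572 to 0.156). Without sham replicate 5 all but Nppa and Acta1 lost it (0.0506 to 0.565). After quantile normalization Nppb, Pam and Csrp3 lost it (0.0616 to 0.156).

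**Figure D2:**
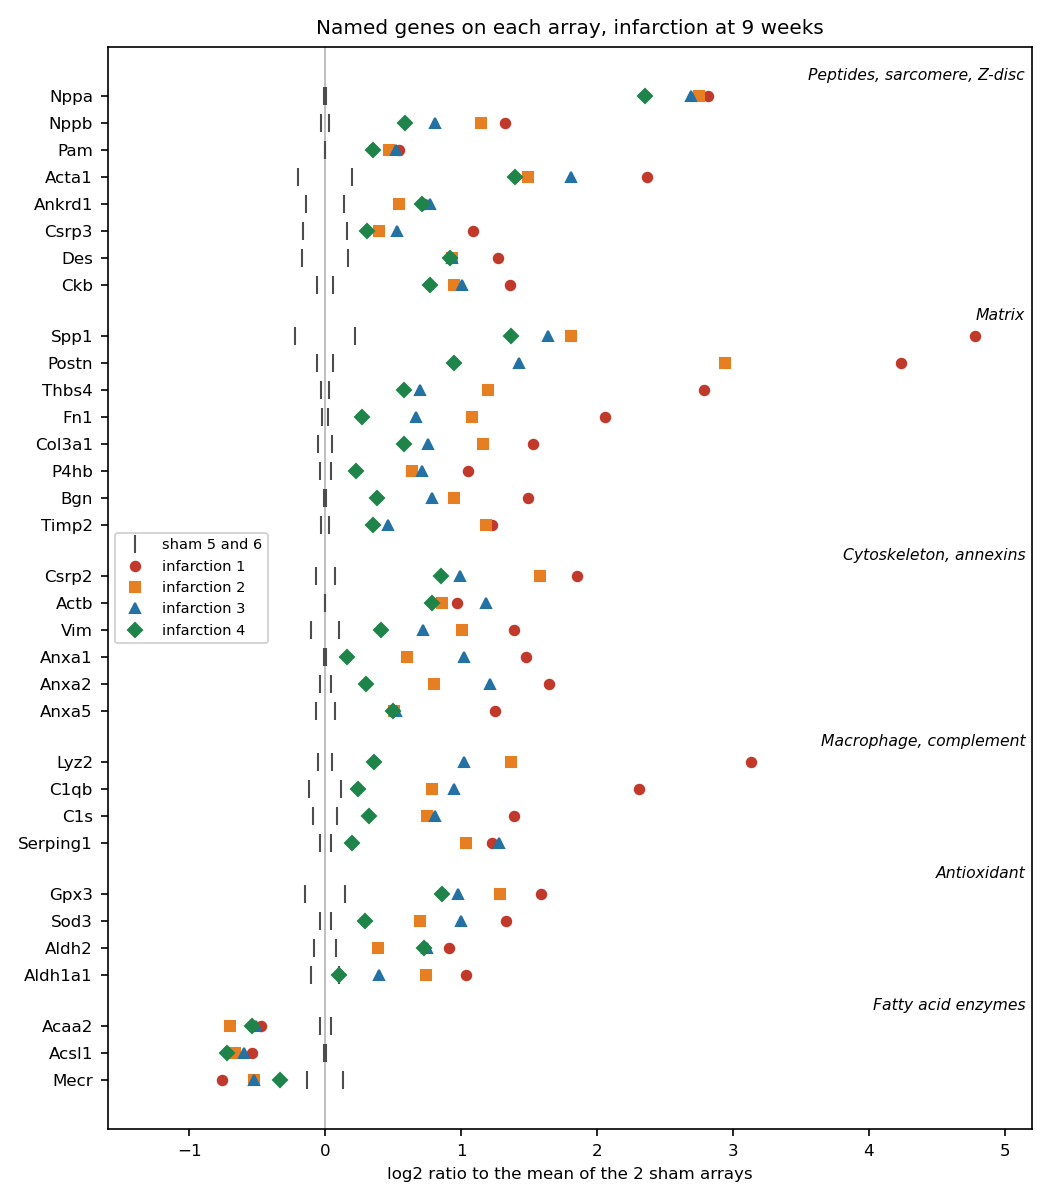
Log2 ratio of each array to the mean of the 2 sham arrays (x axis) for the brightest probe set of named genes in 6 groups (y axis). Ticks are the sham arrays and symbols the 4 infarction arrays, with replicate 1 in red. Nppa sits between 2.35 and 2.82 in all 4, while Spp1 spans 1.37 to 4.78.

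Matrix genes were also higher, but unevenly between the infarction arrays. Spp1, which encodes the secreted adhesion protein osteopontin, read 159 and 214 in sham and 5049, 648, 576 and 477 after infarction. All 4 infarction arrays were above sham, with replicate 1 far above the rest, and the difference was 2.40 ± 0.566 (adjusted p = 0.0241). Postn, the fibroblast matricellular protein periostin, read 112 and 122 in sham and 2206, 898, 315 and 227 after infarction, a rise of 2.39 ± 0.481 (adjusted p = 0.00763). The log2 SD of the 4 infarction arrays was 1.59 for Spp1 and 1.49 for Postn, wider than the shared spread behind these SEs. Fn1, fibronectin, rose by 1.02 ± 0.275 on its brightest probe set (adjusted p = 0.0449), with 990 and 1021 in sham and 4188, 2130, 1598 and 1209 after infarction. Its other 4 probe sets were at -0.09 to 0.19 and were not called. Thbs4, thrombospondin 4, which is raised in loaded muscle and tendon, rose by 1.32 ± 0.345 (adjusted p = 0.0377), from 503 and 525 in sham to 3547, 1183, 835 and 770. Replicate 1 was the highest array in all 4 of these genes, and without it Thbs4 was at 0.83 (0.11) and Fn1 at 0.67 (0.149). Of 18 matricellular and adhesive genes 5 rose (against 1.46% of named genes called higher), 13 did not pass and the median was 0.31. The fifth was Lgals1, a galectin outside the naming rule, named here after its values were seen (0.99, adjusted p = 0.00763). Sparc (0.10 on its brightest probe set) and Tnc (-0.02) were not called on any.

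Of 21 genes of collagens and fibrillar matrix 3 rose (against 1.46% of named genes called higher) and 18 did not pass. The list's median was 0.34. In 12 of these genes all 4 infarction arrays were above both sham arrays (12.5% of named genes were so, and 7.05% were below both). Col3a1, the type III collagen chain, read 4113 and 3823 in sham and 11438, 8858, 6714 and 5946 after infarction, a rise of 1.01 ± 0.208 (adjusted p = 0.00903), and 1.42 on its second probe set. Bgn, the proteoglycan biglycan, rose by 0.90 ± 0.177 (adjusted p = 0.00565) and by 1.66 on its second probe set (0.000465). P4hb, the beta subunit of the hydroxylase that matures collagen, rose by 0.66 ± 0.153 (adjusted p = 0.0228). Its other probe sets, at 0.95 (0.0689) and 0.31 (0.357), were not called. Loxl1, an enzyme that cross-links elastin and collagen, rose by 1.55 ± 0.38 on a dimmer probe set (adjusted p = 0.0282) and was at 1.00 on its brighter one (0.108). The type I chains Col1a1 (0.59 ± 0.25, adjusted p = 0.275) and Col1a2 (0.60 ± 0.216, 0.164) were not called.

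Among 24 matrix proteases and inhibitors 3 rose (against 1.46% of named genes called higher), 21 did not pass and the median was 0.25. Timp2, an inhibitor of metalloproteinases, rose by 0.80 ± 0.193 (adjusted p = 0.0245), the membrane protease Adam10 by 0.51 ± 0.134 (0.0374) and the protease inhibitor Serpine2 by 0.41 ± 0.094 (0.0185). Timp1 was called on its dimmer probe set alone, where sham read 501 and 520 and infarction 5013, 1485, 1190 and 786, a difference of 1.67 ± 0.395 (adjusted p = 0.0242). Its brighter probe set was at 0.64 ± 0.208 (0.107), with all 4 infarction arrays above sham in both. The gelatinases Mmp2 (0.27) and Mmp9 (0.01) were not called. Of 24 genes of the TGF-beta family, a main driver of fibrosis, 2 rose and 22 did not pass, with a median of 0.04. These were Fstl1, a secreted glycoprotein (0.85 ± 0.232, adjusted p = 0.049), and the receptor Bmpr1a (0.51 ± 0.133, 0.0377). The other probe set of Fstl1 was at 0.12 (0.672), with overlap of the groups. The ligands Tgfb1 (0.25), Tgfb2 (-0.01) and Tgfb3 (0.36) were not called.

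Markers of fibroblasts, the cells that make most of this matrix, were counted beside these genes. Of 10 measured fibroblast markers (of 11 listed) 2 rose, Col3a1 and Postn, against 1.46% of named genes called higher. The markers' median was 0.43. With the sham arrays of 3 and 9 weeks pooled the median was 0.23 and 1 rose, Col3a1 being at 0.59 (adjusted p = 0.0659). Their summed signal was 50251 to 51384 in sham and 53722 to 77440 after infarction. The markers among them that do not encode matrix were at 0.14 for Pdgfra, 0.27 for Ddr2, 0.02 for Thy1 and -0.16 for Tcf21, with none called on the brightest probe set and Thy1 called on a dimmer one (0.78, adjusted p = 0.0455). The part of fibroblast RNA in the matrix differences was not tested. In whole tissue, a change in the number of cells of a type and a change in the RNA of each cell cannot be told apart. Of the 14 matrix and TGF-beta genes called above, counted without Lgals1, 11 lost the call without infarction replicate 1 (adjusted p = 0.053 to 0.167) and Postn, Bgn and Col3a1 kept it. Without infarction replicate 2 those of Fstl1, Loxl1, Timp2, Bmpr1a and Fn1 were lost (0.0569 to 0.0998), and without replicate 3 those of Fstl1, Bmpr1a and Adam10 (0.0675 to 0.128). Without sham replicate 5 all but Adam10 lost it (0.103 to 0.643), and without sham replicate 6 all 14 did (0.0614 to 0.6).

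The cytoskeleton list held more called genes than any of the other lists. Of 25 measured genes 9 rose, 0 fell and 16 did not pass, against 1.46% of named genes called higher. The list's median was 0.49. In all infarction arrays 14 were above both sham arrays and 3 below both, against 12.5% and 7.05% of named genes. Actb, non-muscle beta-actin, read 10005 and 10056 in sham and 19613, 18243, 22707 and 17399 after infarction. The gap was wide and even, and the difference was 0.95 ± 0.149 (adjusted p = 0.000363). Csrp2, a LIM protein of smooth muscle and fibroblasts, rose by 1.32 ± 0.251 (adjusted p = 0.00458), and Vim, vimentin, the intermediate filament of mesenchymal cells, by 0.88 ± 0.187 (0.0113). Des, given above, is also on this list. The other 5 were Csrp1, Tubb5, Msn, Pfn1 and Actg1 at 0.57 to 0.86, named after their values were seen. Acta2, smooth muscle alpha-actin, was at 0.52 ± 0.248 on its brightest probe set (adjusted p = 0.348) and was called on another, at 0.80 (0.0327). Smooth muscle and pericyte markers had a median of 0.04 over 6 measured genes, with 0 called by limma on the brightest probe set (1 at an unadjusted p below 0.05) and Tagln called on a dimmer one (0.57, adjusted p = 0.0291).

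Annexins, calcium-dependent proteins that bind membranes and the cortical cytoskeleton, rose as well. Anxa2 read 3046 and 3238 in sham and 9844, 5483, 7273 and 3874 after infarction, a rise of 0.99 ± 0.189 (adjusted p = 0.00458). Anxa1 rose by 0.81 ± 0.197 (adjusted p = 0.0264) and Anxa5 by 0.70 ± 0.179 (0.0354). The other probe set of Anxa1 was at 0.70 and was not called (0.103). In Anxa5 replicate 1 read 7989, well above the 4762 to 4834 of the other infarction arrays. Of 13 annexins and S100 proteins 3 rose (against 1.46% of named genes called higher), 10 did not pass and the median was 0.32. Of the 6 genes Csrp2, Actb, Vim, Anxa1, Anxa2 and Anxa5, the calls of Vim, Anxa1 and Anxa5 were lost without infarction replicate 1 (adjusted p = 0.0506 to 0.132), and that of Anxa1 without replicate 3 (0.0747). All but Actb were lost without sham replicate 5 (0.0506 to 0.415) and all but Actb and Anxa2 without sham replicate 6 (0.0543 to 0.149).

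Some components of the classical complement pathway rose. C1qb, a chain of the first complement component made by macrophages, read 1138 and 1350 in sham and 6128, 2142, 2393 and 1461 after infarction, a rise of 1.07 ± 0.279 (adjusted p = 0.0371). Infarction replicate 1 was far above the others there, and without it C1qb was at 0.66 (0.0924). C1s, its serine protease, rose by 0.82 ± 0.214 (0.0374) and Serping1, the inhibitor of that protease, by 0.94 ± 0.223 (0.0245). These 3 of 12 measured complement genes were called, against 1.46% of named genes called higher, and the list's median was 0.14. C3 lay at 0.02 and the lowest gene of the list at -0.52, not called. In 1 gene of the list all infarction arrays were below both sham arrays. Apoe, an apolipoprotein that macrophages secrete, rose by 1.36 ± 0.327 on a dimmer probe set (0.0245), but was at 0.30 on its brighter one (0.495). Lyz2, the macrophage lysozyme, read 2882 and 2696 in sham and 24456, 7185, 5663 and 3586 after infarction, and its 1.47 ± 0.428 did not pass (adjusted p = 0.0662).

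The summed signal of 8 measured macrophage and monocyte markers (of 16) was 15152 and 15789 in sham and 48835, 21744, 18968 and 16992 in infarction replicates 1 to 4. Their median was 0.09 with C1qb alone called, and Csf1r (-0.15), Aif1 (-0.05), Ptprc (-0.02) and Cd14 (0.05) were not called. No marker value on these 6 arrays was below 16. The lymphocyte, mast cell and neutrophil lists had medians of -0.09 to 0.06 and 0 calls by limma (2 at an unadjusted p below 0.05). Measured were 10 of 14 T and natural killer markers, 9 of 11 of mast cells and 4 of 7 of neutrophils. For B lymphocytes it was 1 of 8, so those cells were hardly covered. None of 37 cytokines and chemokines was called (8 at an unadjusted p below 0.05), and Ccl2, which draws monocytes, was at 1.13 (adjusted p = 0.191). The share called over all named genes was 1.6%. Cd74, the invariant chain of class II antigen presentation, was at -0.31 on its brightest probe set (adjusted p = 0.479) and at 0.66 on its dimmest (0.0288). The calls of C1qb, C1s, Serping1 and Apoe were all lost without infarction replicate 1 (adjusted p = 0.075 to 0.147), without sham replicate 5 (0.22 to 0.445) and without sham replicate 6 (0.119 to 0.173), and without infarction replicate 3 that of Apoe alone was kept. The part of macrophage RNA in these differences was not tested.

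**Figure D3:**
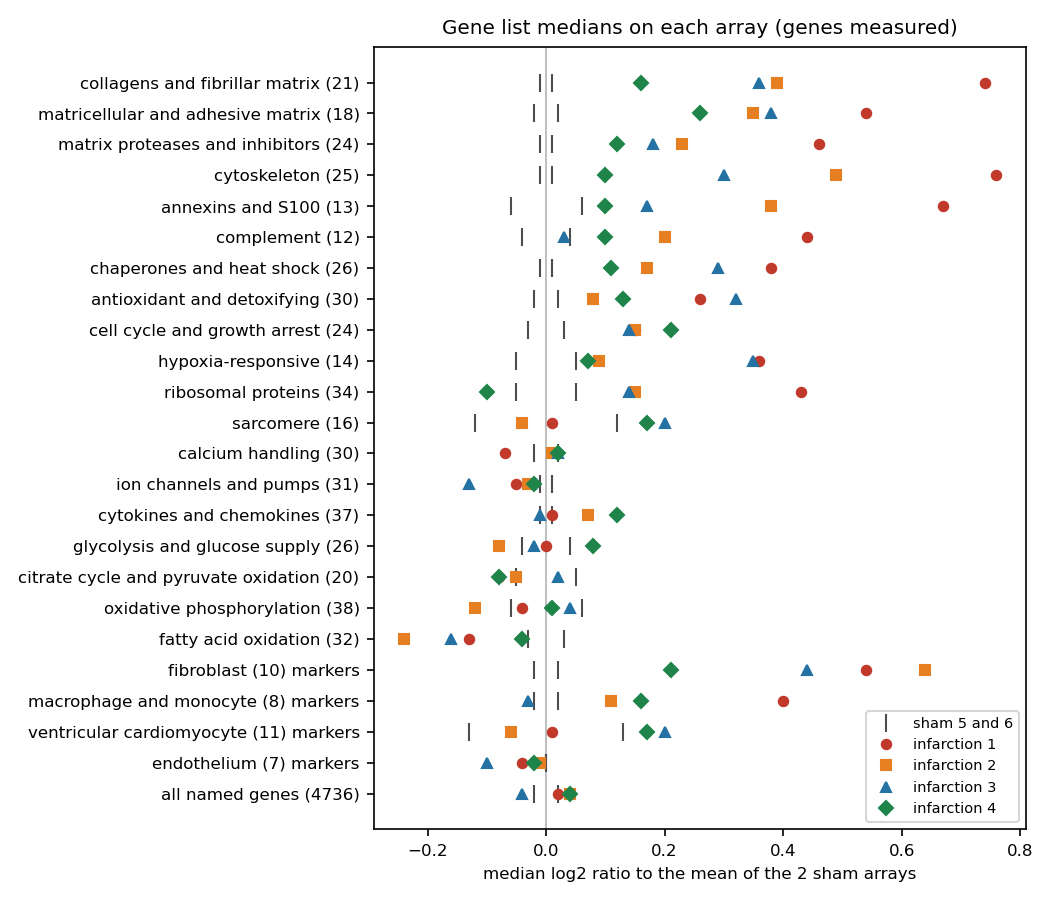
Median log2 ratio to the sham mean (x axis) of 23 gene lists and of all named genes (y axis, number of genes measured in brackets) on each array. Ticks are the sham arrays and symbols the 4 infarction arrays. For the cytoskeleton the medians run from 0.10 in infarction replicate 4 to 0.76 in replicate 1, while for all named genes they lie between -0.04 and 0.04.

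Secreted antioxidant enzymes were among the genes that rose. Gpx3, the secreted glutathione peroxidase, read 6833 and 8405 in sham and 22739, 18558, 14962 and 13732 after infarction, a rise of 1.18 ± 0.167, or 2.26-fold (adjusted p = 7.42e-05). On its second probe set the infarction arrays read 7965, 8264, 8308 and 6047 against 2369 and 2597, a rise of 1.61 ± 0.201 (6.62e-06). Sod3, the extracellular superoxide dismutase, rose by 0.83 ± 0.181 (adjusted p = 0.0141), and was at 0.37 on its other probe set (0.232). The aldehyde dehydrogenases Aldh2, of mitochondria, and Aldh1a1, of the cytosol, rose by 0.70 ± 0.179 (0.0354) and 0.57 ± 0.149 (0.0381). Of 30 antioxidant and detoxifying genes these 4 rose and 26 did not pass, against 1.46% of named genes called higher. The list's median was 0.18. The intracellular Sod1 (0.28), Sod2 (0.23) and Cat (0.25) were not called. Of 26 chaperones 2 rose, Clu, the secreted chaperone clusterin (0.68 ± 0.135, adjusted p = 0.00711), and Hspb6, a small heat shock protein of muscle (0.50 ± 0.113, 0.0181), and the median was 0.25. The other probe set of Hspb6 was at 0.34 and was not called (0.151). Clu was even across the infarction arrays, at 28897 to 33987 against 18895 and 19459. Of these 6 genes Gpx3 alone kept the call without sham replicate 5 and without sham replicate 6 (adjusted p of the others 0.0577 to 0.437). Sod3, Aldh2 and Aldh1a1 lost it without infarction replicate 1 (0.0628 to 0.147), Aldh1a1 without replicate 2 (0.0831), and Hspb6 and Aldh2 without replicate 3 (0.0522 to 0.08).

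Further rises were spread over signalling, calcium storage and other roles. Akip1, which binds protein kinase A, read 1058 and 918 in sham and 4492, 2315, 1945 and 1800 after infarction, a rise of 1.32 ± 0.241 (adjusted p = 0.00309). A dimmer probe set of it rose by 1.67, while the other 2 were at -0.01 and 0.01. Pea15, a death effector domain protein that binds ERK, read 600 and 629 in sham and 1375, 1374, 1357 and 1138 after infarction, a rise of 1.09 ± 0.184 (0.000984), and 0.21 on its other probe set. Fgfr1, a fibroblast growth factor receptor, rose by 1.14 ± 0.278 on its dimmest probe set (0.028), against 0.15 and -0.08 on the others. Dapk3, a death-associated kinase, rose by 1.14 ± 0.296 on its dimmer probe set (0.0371), against 0.47 on the brighter. Casq2, which stores calcium in the sarcoplasmic reticulum, rose by 0.74 ± 0.192 (0.0371), and Ptgfr, the receptor of prostaglandin F2alpha, by 0.42 ± 0.111 (0.0381). On its other probe sets Ptgfr was at 0.15 and 0.30 and was not called. Rpl3, called as the only 1 of 34 ribosomal protein genes, rose by 1.03 ± 0.257 (0.0312), with 13340 in infarction replicate 1 against 3822 to 6992 in the others. Its other probe set was at 0.73 (0.229), with overlap of the groups. Over all named genes 1.46% were called higher, so 1 call does not set the ribosomal list apart. Akip1 and Pea15 kept their calls without infarction replicate 1, without replicate 3 and without sham replicate 5, while the other 5 lost theirs (adjusted p = 0.0551 to 0.587). Without sham replicate 6 all 7 but Pea15 lost the call (0.065 to 0.3), and without infarction replicate 2 Ptgfr did (0.0799).

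Among the 10 named genes that fell with no overlap of the arrays were Acaa2, Acsl1 and Mecr, enzymes that act on fatty acids. Acaa2, the thiolase that ends each round of mitochondrial fatty acid oxidation, read 21317 and 20298 in sham and 15035, 12827, 14617 and 14324 after infarction. The groups did not overlap, and the gene fell by 0.55 on the log2 scale (SE 0.147, adjusted p = 0.0417). Acsl1, which activates long-chain fatty acids to their CoA esters, read 10730 and 10869 in sham and 7405, 6849, 7123 and 6571 after infarction. It fell by 0.63 (SE 0.162, adjusted p = 0.0354), while its other 3 probe sets were at -0.56 to -0.02 and were not called. The mean of its 4 probe sets was at -0.32 and was not called (0.351). Mecr, a reductase of mitochondrial fatty acid synthesis, fell by 0.53 (SE 0.137, adjusted p = 0.0354), with 2133 and 2548 in sham and 1374 to 1849 after infarction, was at -0.04 on its other probe set, and was not called on the mean of both (-0.29, 0.307).

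Of 32 measured genes of fatty acid oxidation these 2, Acaa2 and Acsl1, fell, 0 rose and 30 did not pass. The median was -0.13 against 0.01 for all named genes (-0.23 after quantile normalization, with 3 lower). With the mean of a gene's probe sets it was -0.08, with 1 gene higher and 1 lower. All 4 infarction arrays were below both sham arrays in 10 of the 32 and above both in 2, against 7.05% and 12.5% of named genes. Decr1, which reduces double bonds of unsaturated fatty acids, was the lowest but missed the threshold (-0.64, adjusted p = 0.0693), and Ech1 was at -0.36 (0.325). The trifunctional protein's subunits were at 0.04 ± 0.163 for Hadha and -0.33 ± 0.199 for Hadhb, and the carnitine transferase Cpt1b was at -0.06 ± 0.13. None of the 20 citrate cycle and pyruvate genes, 38 genes of oxidative phosphorylation or 26 genes of glycolysis and glucose supply was called (4, 3 and 5 at an unadjusted p below 0.05), and their medians were -0.06, -0.04 and 0.02. After quantile normalization the medians were -0.16, -0.18 and -0.06, with 1 citrate cycle gene and 1 glycolysis gene called lower. With the mean of a gene's probe sets 2 glycolysis genes were called higher. Over all named genes 1.6% were called. Eno1, the enolase of glycolysis, was called on its dimmer probe set (0.58, adjusted p = 0.00458) and not on its brighter (0.36, 0.248). The glycerol channel Aqp7 was at -0.38 ± 0.201 (adjusted p = 0.427), the glucose transporters Slc2a1 and Slc2a4 at 0.13 and 0.16, and Pdk4, a brake on pyruvate oxidation, at 0.34 ± 0.314. Cardiomyocyte markers, 11 of 14 measured, had a median of 0.08 and a summed signal of 346230 to 416686 in sham and 363333 to 436002 after infarction.

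**Figure D4:**
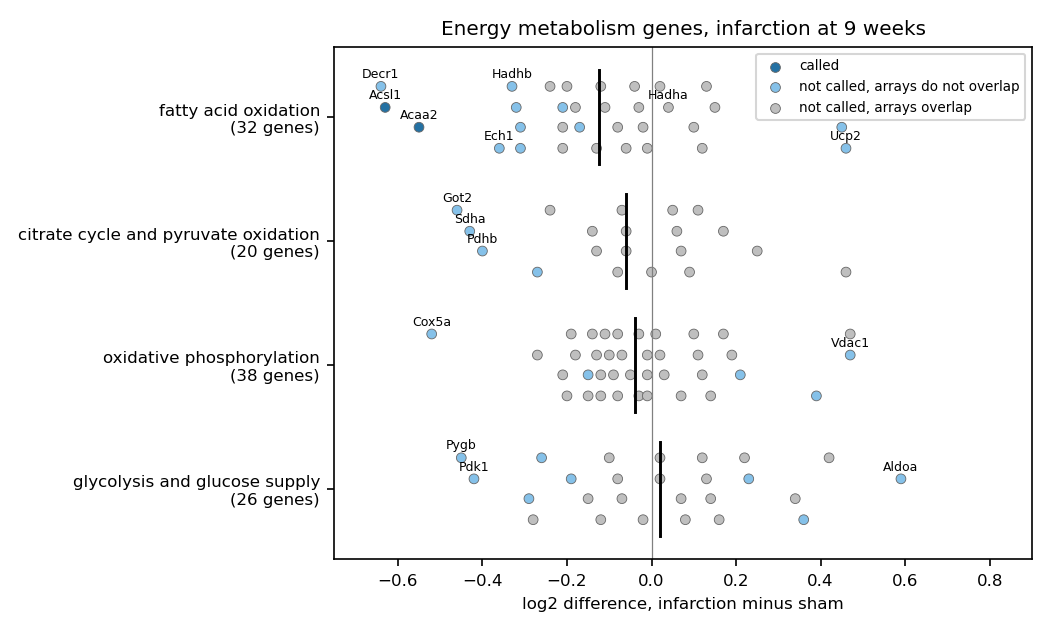
Log2 difference (infarction minus sham, x axis) of each measured gene in 4 lists of energy metabolism (y axis). Dark blue marks called genes, light blue genes whose infarction arrays all lie on one side of both sham arrays without a call, grey the rest, and the black bar the list's median. Acaa2 and Acsl1 are the called genes, and the fatty acid oxidation median lies at -0.13.

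The other named genes that fell were dim or of uncertain role in ventricle. Fdx1, the ferredoxin that passes electrons to mitochondrial P450 enzymes, fell by 0.97 on a dimmer probe set (SE 0.17, adjusted p = 0.0018), from 1017 and 858 to 495, 567, 369 and 506. Its brighter probe set was at -0.23 (0.577). Nog, a secreted antagonist of bone morphogenetic proteins, fell by 1.04 (SE 0.267, 0.0354), from 215 and 160 to 72 to 119, and was at -0.16 on its brighter probe set. The GABA receptor subunit Gabrb2 fell by 0.66 (SE 0.157, 0.0245) and was at -0.36 on its other probe set, where the groups overlapped. The serotonin receptor Htr7 fell by 0.86 (SE 0.217, 0.0345), with 0.08 on its brighter probe set. The CCAAT-binding subunit Nfyb fell by 0.52 (SE 0.143, 0.0491) on 1 of its 3 probe sets. On the brightest it was at -0.05 (0.908) and on the remaining one at -0.40 (0.538). Ceacam11, of the carcinoembryonic antigen family, fell by 0.47 (SE 0.12, 0.0354). The dopamine receptor Drd4 fell by 0.59 (SE 0.141, 0.0245), but sham replicate 6 read 2174 while sham replicate 5, at 1111, was barely above the infarction arrays (991 to 1089). It was at -1.08 without sham replicate 5 and at -0.11 without sham replicate 6. The lowest difference called, -1.26 (adjusted p = 0.0354), was that of a probe set with no single gene symbol (U49099_at), at 15383 and 17049 in sham and 5515, 7991, 4038 and 11664 after infarction. Of the 10 named genes that fell, 8 lost the call without infarction replicate 1 (0.0562 to 0.123), all but Fdx1 and Ceacam11. Without replicate 2, Nfyb, Acsl1 and Acaa2 lost it (0.0559 to 0.0841), without replicate 3 all but Nog, Gabrb2 and Fdx1 (0.0522 to 0.125) and without replicate 4 Nfyb (0.0634). Without sham replicate 5 all but Drd4 lost it (0.124 to 0.757), and without sham replicate 6 all but Htr7 and Fdx1 (0.0837 to 0.848). With the sham arrays of 3 and 9 weeks pooled, Htr7, Nfyb, Drd4, Nog and Acaa2 lost it (0.0659 to 0.321).

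Several systems often followed in failing hearts held few calls or none. With 1.6% of 4736 named genes called, 0 or 1 call in lists of this size does not set them apart. Of 30 calcium handling genes Casq2 alone was called, and Atp2a2, the calcium pump of the sarcoplasmic reticulum, was at 0.03 ± 0.183 on its brightest probe set and at -0.30 to 0.19 over all 4. In the renin-angiotensin and endothelin list of 20 genes, which includes vasoactive receptors, Ptgfr alone was called, with Agt at -0.16 ± 0.144, Ace at -0.24 ± 0.133 and Edn1 at -0.11 ± 0.212. Of 34 adrenergic and monoamine genes Akip1 alone was called. Maoa, which breaks down monoamines, read 18308 and 15169 in sham and 26913, 28063, 32509 and 20993 after infarction, and its 0.69 ± 0.189 missed the threshold (adjusted p = 0.0516). The beta1-adrenoceptor gene Adrb1 was at 0.23 ± 0.102. None of 14 hypoxia-responsive genes was called (5 at an unadjusted p below 0.05, all higher), with Vegfa at -0.00, Egln3 at 0.14 and Slc2a1 at 0.13. Their median was 0.21, against 0.01 for all named genes, with 11 genes above 0 and 3 below. Igf1 was at -0.19 ± 0.198. By limma, 0 of 31 ion channel, 24 cell cycle, 21 immediate early, 15 cardiac transcription factor, 14 apoptosis and 23 proteasome genes were called on the brightest probe set (3, 3, 1, 1, 1 and 4 at an unadjusted p below 0.05). The cell cycle median was 0.17. In 10 of those 24 genes all infarction arrays were above both sham arrays and in 0 below both, against 12.5% and 7.05% of named genes. Dimmer probe sets of Ccnd2 (1.05), Ccnd3 (0.62 and 0.53), both D-type cyclins, of Junb (0.78) and Ier3 (0.85), both immediate early genes, and of Slc8a1 (0.48) and Grk2 (0.49), the sodium-calcium exchanger and a receptor kinase, were called higher, while their brightest lay at -0.06 to 0.51. These 6 genes are outside the naming rule and were named after their values were seen.

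The infarction effect 9 weeks after ligation was set against that at 3 weeks, measured in other rats of the same sex and strain on 4 infarction and 2 sham arrays of their own. At 3 weeks 18 probe sets were called (0.206%), all higher, and 13 of them were also called at 9 weeks. These 13 are 72.2% of the 3-week calls and 7.74% of the 9-week calls. They were the 4 probe sets of Nppa and those of Nppb, Acta1, Ankrd1, Myh7, Akip1, Clu, Bgn, Col3a1 and Bmpr1a. Among the heart muscle genes, Nppa was 2.26 ± 0.224 at 3 weeks against 2.65 at 9 weeks, Nppb 1.05 against 0.97, Acta1 1.37 against 1.77 and Ankrd1 0.73 against 0.69. Pam was 0.38 against 0.47, Csrp3 0.32 against 0.58, Ckb 0.34 against 1.02 and Des -0.15 against 1.01. Across all 8740 probe sets, which are not independent replicates, the 2 effects correlated at r = 0.336 (rho = 0.18).

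The difference between the effects at 9 and 3 weeks was tested directly, and limma called 0 of 8740 probe sets (0%), with 509 at an unadjusted p below 0.05. Des came closest, with -0.15 ± 0.155 at 3 weeks and a difference between the times of 1.17 ± 0.219 (adjusted p = 0.0739). Actb was at 0.07 at 3 weeks and 0.95 at 9 weeks, a difference of 0.88 ± 0.211 (0.547). Against the sham arrays of 3 and 9 weeks pooled, the 9-week infarction arrays were at 0.54 for Actb and 0.65 for Des. Against the 9-week sham arrays alone they were at 0.95 and 1.01. The 3-week sham arrays thus read higher than the 9-week ones in both genes. Pooling weighs the sham groups equally, so they differ by more than the shift from 0.95 to 0.54 or from 1.01 to 0.65. Nearly all of the Actb difference between the times, and the larger part of the Des one, lay in the sham arrays. Spp1 (1.16 against 2.40) and Postn (2.01 against 2.39) differed by 1.24 ± 0.801 and 0.38 ± 0.681, which did not pass (adjusted p = 0.933 and 0.997). The cytoskeleton median was 0.18 at 3 weeks and 0.49 at 9 weeks, the collagen median 0.36 and 0.34, and the fatty acid oxidation median -0.20 and -0.13. Without sham replicate 5 the count of probe sets that differed was 5 and without sham replicate 6 it was 6.

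**Figure D5:**
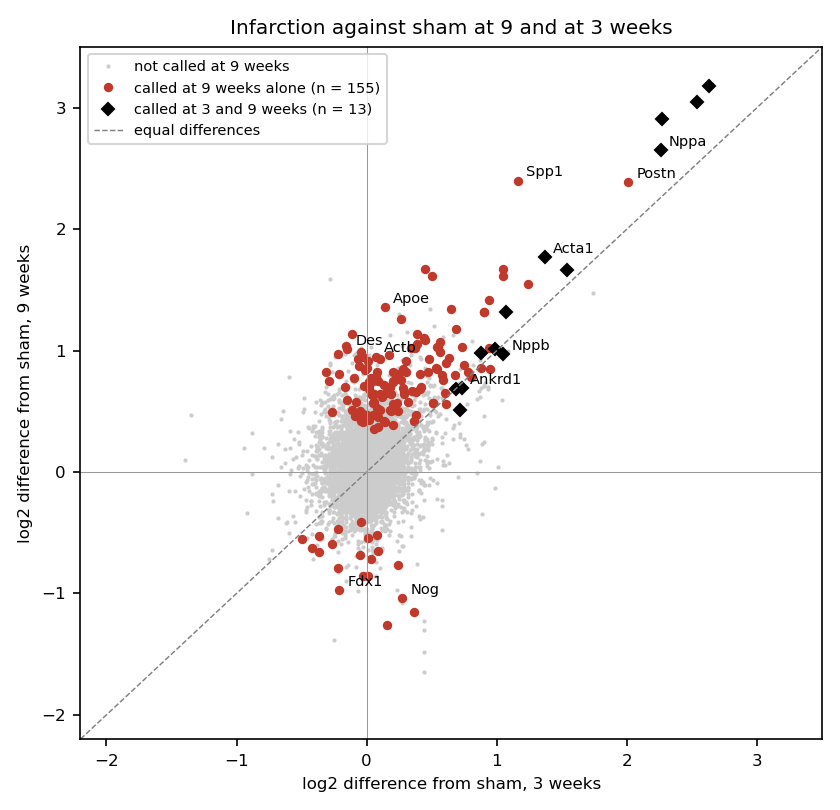
Log2 difference from sham at 9 weeks (y axis) against that at 3 weeks (x axis) for 8740 probe sets, each time with its own sham arrays. Black diamonds are the 13 probe sets called at both times and red points the 155 called at 9 weeks alone. Nppa lies near the line of equal differences and Des and Actb lie above it, with no probe set passing the test of the difference.

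Set against aortic banding at 30 weeks, a pressure overload with 4 banded and 2 sham arrays of its own, the infarction effect at 9 weeks also gave 0 probe sets that differed (0% by limma, 489 at an unadjusted p below 0.05, smallest adjusted p = 0.436). Nppa was at 2.20 ± 0.224 after banding, Acta1 at 1.97 ± 0.206 and Nppb at 1.43 ± 0.226, against 2.65, 1.77 and 0.97 after infarction. Actb was at 0.09 after banding and 0.95 after infarction, a difference of 0.86 ± 0.211 (adjusted p = 0.436). Acaa2 was at -0.97 ± 0.147 after banding and -0.55 after infarction, a difference of 0.42 ± 0.208 (adjusted p = 0.9). Without sham replicate 5 of the infarction series 4 probe sets differed, and without sham replicate 6 12 did.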

How the data were processed

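The Affymetrix RGU34A arrays were normalized by the authors with the invariant rank method of dChip and summarized with its perfect-match model. The deposited values are intensity in arbitrary units, 1 column per array and 1 pool of RNA per array. The number of arrays limits the precision. Values under 16 were set to 16, which touched 1 to 6 values on each of the 6 arrays compared, and log2 was taken (array medians 1018.6 to 1073.3). limma 3.58.1 in R 4.3.3 fitted a mean to each of 20 groups over 46 arrays (26 residual degrees of freedom), with Benjamini-Hochberg adjustment over 8740 probe sets. Pairs of replicates shared at most 1 identical value, and all were kept. The fit was tested on simulated data.

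Gene names came from the platform annotation, updated by gene ID: 7006 probe sets have 1 symbol (4736 genes), 308 several and 1426 none, and only the first were named. Where probe sets share a gene, the brightest over 46 arrays stands for it. Genes were named by rule: the 15 largest rises and falls among called probe sets whose groups do not overlap (of a gene's called probe sets the brightest), up to 4 called genes of each of 48 lists (774 of 1068 genes measured), and 36 genes whatever their values. The members and lists were chosen with earlier results of these data known. Alternatives were quantile normalization, floors of 1 and 64, a mean signal of at least 100, other sets of arrays, array weights, a trended robust fit, pooled shams, each array left out, and the mean of a gene's probe sets.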

Additional observations from a re-analysis of the deposited data

Results flagged for a closer look

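In 4 of 82 named probe sets, 1 infarction array stood apart from the other 3 by more than Dixon's critical value for 4 arrays, with the gap to the nearest array divided by the range of the 4. Chance flags about 1 in 20 groups. In Anxa5 (ratio 0.97), Des (0.96) and Spp1 (0.87) it was infarction replicate 1, the highest array, with log2 ratios to sham of 1.25 for Anxa5, 1.27 for Des and 4.78 for Spp1. In Pea15 (0.93) it was replicate 4, the lowest, at 0.89. Array weights fitted to all probe sets were 0.415, 2.96, 0.263 and 0.61 for infarction replicates 1 to 4 and 1.32 for each sham array. No probe set passed the test of a difference between the effects at 9 and 3 weeks.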

How the results depend on the processing

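No paired analysis was possible because the infarction arrays are numbered 1 to 4 and the sham arrays 5 and 6, so the groups share no replicate number. The count of 168 calls (148 higher, 20 lower) was 28 (25 and 3) with the 12 infarction arrays alone, 6 (6 and 0) with the 6 arrays alone and 476 (391 and 85) with array weights. Quantile normalization gave 92 higher and 34 lower, 73% higher against 88.1%, with a median over all probe sets of -0.03. Calls it ended, beside those of heart muscle genes, were those of Fstl1, Bmpr1a, Fn1, Thbs4, Adam10, C1s, C1qb, Aldh1a1, Hspb6, Dapk3, Ptgfr and Casq2 (adjusted p = 0.0502 to 0.17), and pooled shams also ended those of Col3a1, Adam10, Aldh2, Dapk3 and Casq2 (0.0556 to 0.194). Array weights ended those of Aldh2, Dapk3 and Htr7 (0.0562 to 0.0698). Taking the mean of a gene's probe sets ended those of Pam, Fn1, Fstl1, Fgfr1, Ptgfr, Rpl3, Acsl1, Mecr, Htr7 and Nfyb (0.0615 to 0.351) and added calls of Timp1 (1.16), Maoa (0.68) and Myh7 (0.56). Other differences that moved by over 1.5 times were those of Actb (0.54) and Des (0.65) with pooled shams, which stayed called, of Adam10 (0.28) without sham replicate 6 and of Htr7 (-0.48) without sham replicate 5. Over the 6 fits that each left out 1 array the count ran from 28 to 405 (18 to 350 higher, 6 to 55 lower), and where 1 sham array was left, it was assumed to vary like the other groups. The floors, the signal filter, the trended robust fit and the pooled shams gave 168 to 178 calls. Calls in all 15 of these settings numbered 6, the 4 probe sets of Nppa and 1 each of Gpx3 and Pea15. The 0 calls between 9 and 3 weeks became 2 with array weights and 0 to 6 when 1 array was left out, and the 0 between infarction and banding 0 to 12. The number of lists with a called gene was 22 of 48, and 8 to 34 when 1 array was left out. None of the 82 named probe sets turned its direction with a call in any setting. Some list medians near 0 did change sign, among them those of ventricular cardiomyocyte markers (0.08, and -0.01 after quantile normalization) and of the citrate cycle (-0.06, and 0.01 with the mean of a gene's probe sets). With 2 sham arrays the control spread is known mainly from the other groups.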
